A study of Mus musculus with 12 samples.

Results

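The genes described here are the 10 that carry a fatty acid and a glycerol backbone to triglyceride by the glycerol phosphate route: Acsl1, Gpd1, Pck1, Gpam, Gpat3, Gpat4, Agpat2, Lpin1, Dgat1 and Dgat2. They were taken by name from a table of 54532 genes, and all 10 were found and tested among 16393 genes with sufficient counts. RNA came from whole lysates of the tibialis anterior, a shin muscle, at day 5 of a glycerol injury. The 6 knockout libraries came from mice labelled FAP no ppary, with a conditional deletion of Pparg in FAPs (fibro-adipogenic progenitors), the mesenchymal cells of muscle that can become fat cells. The 6 control libraries came from mice labelled Wildtype. Libraries of both groups share the strain label 129svlmJ, the glycerol injury and the day of sampling. The Cre driver, the time of deletion, and the age and sex of the animals are not given in the sources used here, and the labels do not say that each library is a separate animal, so the p-values speak of the spread among these libraries, which may be technical.

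Triglyceride is built in a short chain of reactions. Acsl1 couples a fatty acid to coenzyme A, and Gpd1 reduces dihydroxyacetone phosphate to glycerol 3-phosphate, for which Pck1 supplies carbon from pyruvate in fat cells (glyceroneogenesis). The first acyl group is added by a glycerol 3-phosphate acyltransferase, either Gpam on the mitochondrial outer membrane or Gpat3 and Gpat4 on the endoplasmic reticulum. Agpat2 adds the second, Lpin1 removes the phosphate to leave diacylglycerol, and Dgat1 or Dgat2 adds the last acyl group. Loss of AGPAT2 in people causes congenital generalized lipodystrophy, and loss of lipin 1 in mice causes fatty liver dystrophy with little fat tissue. Pck1 and Acsl1 are known targets of Pparg in fat cells.

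Library totals lay between 15716056 and 29790720 counts in knockouts and between 17983299 and 25613732 counts in controls. CPM below are read counts scaled to the TMM-adjusted size of each library. CPM of Pparg itself had a lowest, median and highest value of 15.6, 23.2 and 43.1 CPM in knockouts, against 45.0, 56.3 and 67.4 CPM in controls, and the groups did not overlap (log2 fold change -1.12 with an SE of 0.21, edgeR adjusted p = 0.0299). Markers of skeletal muscle fibres summed to between 16300 and 55200 CPM in knockouts and to between 19600 and 44200 CPM in controls. Knockout replicate 6 and control replicates 2 and 6 had the lowest fibre sums, at 16270, 19590 and 19780 CPM. Calls without these 3 libraries are given after the summary of the calls.

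Of the 10 genes, Gpat3, Dgat1, Agpat2 and Acsl1 fell in the knockout, 0 rose and 6 missed the threshold, an adjusted p under 0.05 by the quasi-likelihood test of edgeR after Benjamini-Hochberg adjustment across the tested genes. Of all tested genes 0.799% passed, 0.75% as lower and 0.0488% as higher. The median log2 fold change of the 10 genes was -1.10, and that of all tested genes -0.00132, and 9 of the 10 values were negative, against 50.5% of all tested genes. The value of Gpam among these 9 was -0.01 and turned positive under other scalings. In 6 of the 10 genes (Acsl1, Pck1, Gpat3, Agpat2, Dgat1 and Dgat2) all 6 knockout libraries lay below the lowest control, against 1.27% of all tested genes. In 0 of the 10 did all knockout libraries lie above the highest control, against 0.159% of all tested genes. The genes of the first acylation divided: Gpam and Gpat4 stood near their control levels, while Gpat3, which catalyses the same reaction, stood at 33.5% of its control mean. The samples are whole muscle, so fewer cells of a type and less RNA per cell cannot be told apart.

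Whether the 4 genes passed depended on which library was omitted, while their fold changes stayed negative. With single libraries omitted, the log2 fold change ran from -1.758 to -1.425 for Gpat3 and from -0.928 to -0.764 for Dgat1. For Acsl1 it ran from -1.234 to -0.992 and for Agpat2 from -1.405 to -1.11. When single libraries were omitted, 12 fits in all, Gpat3 and Dgat1 passed in 9 fits, Acsl1 in 6 and Agpat2 in 4, and the number of the 10 genes that passed was between 0 and 5, while over all tested genes it was between 6 and 214, against 131 with every library. Of the 10 genes 0 passed without knockout replicate 3, knockout replicate 4 or control replicate 4, against 6, 9 and 12 of all tested genes. Without knockout replicate 6, control replicate 1 or control replicate 2 it was 2 of the 10, against 35, 65 and 24 of all tested genes. Without the 3 libraries of lowest fibre markers, an alternative chosen after seeing the data, 0 of the 10 and 9 of all tested genes passed. The log2 fold changes were then -1.42 for Gpat3, -0.76 for Dgat1, -1.25 for Agpat2 and -0.93 for Acsl1. Their adjusted p-values ran from 0.063 to 0.181 (edgeR quasi-likelihood). With DESeq2 and with limma-voom 7 of the 10 passed, against 399 and 389 of all tested genes.

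**Figure D1:**
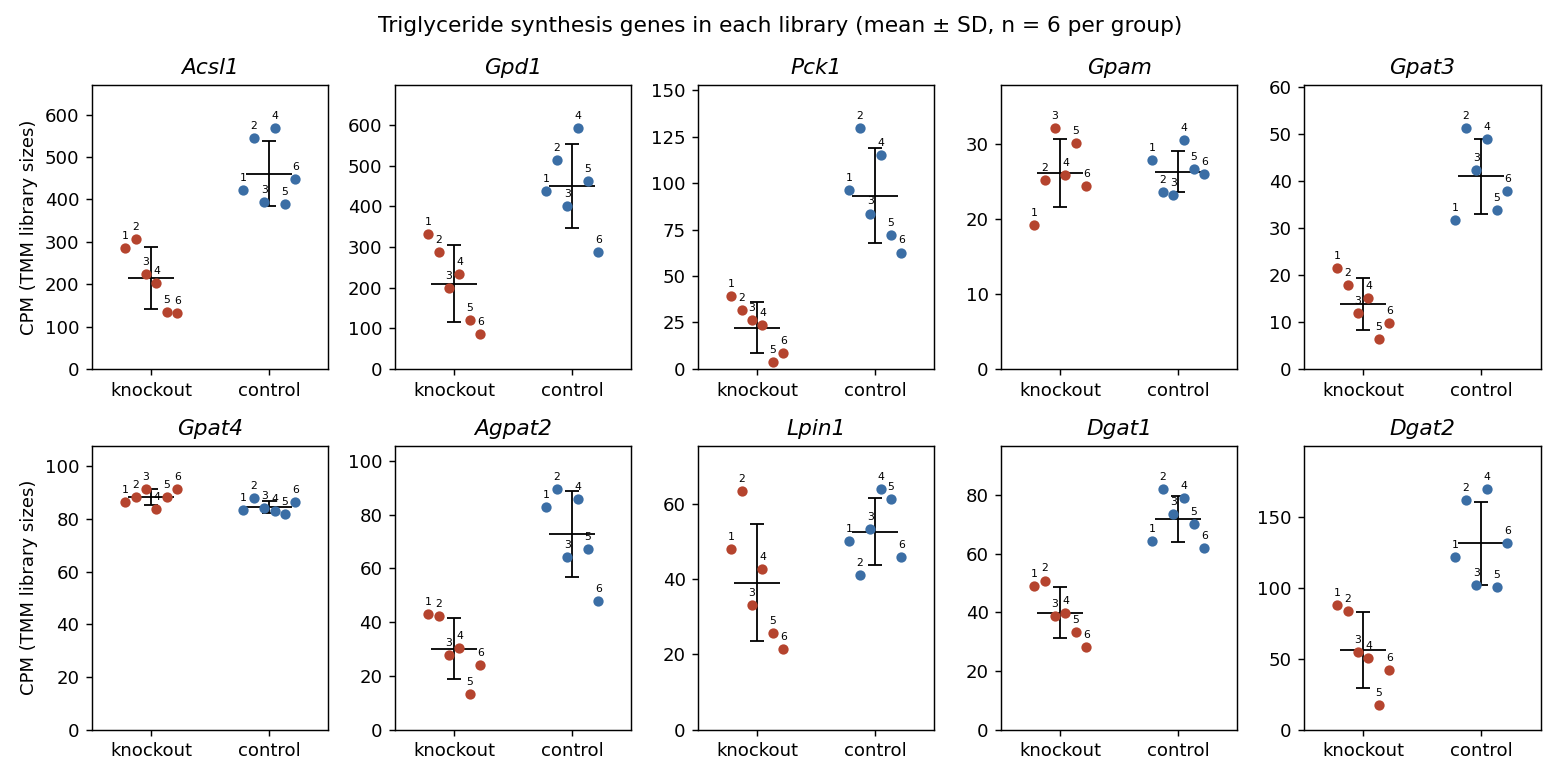
CPM (TMM library sizes, linear axes from 0) of the 10 genes in the 6 knockout and 6 control libraries. Points are libraries numbered by replicate, and bars are the mean ± SD. For Acsl1, Pck1, Gpat3, Agpat2, Dgat1 and Dgat2 all knockout points lie below all control points, whereas Gpam and Gpat4 overlap.

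Promoter sequences are shown for Agpat2 and Acsl1, which fell, for Pck1, which had the lowest knockout level relative to controls, and for Gpam, which stood near its control level, so that the letters before their start sites can be compared. RefSeq promoters of build GRCm38.p6 were available for 6 genes, and Gpd1, Gpat4, Dgat1 and Dgat2 were not in the table used. Acsl1 and Gpam had 2 start sites each there, of which 1 is shown. The start site of Gpam lay 26 bases outside the gene as counted, and its first 50 bases were not found in a GENCODE transcript. The Gpam sequence may therefore not precede the transcript that was counted. Each sequence is the 250 bases before the start site, 5′ to 3′ on the strand of the gene, and capitals mark the motifs that were found. The sequence of Agpat2 is chr2:26604418-26604667 (minus strand), that of Acsl1 chr8:46470787-46471036 (plus), Pck1 chr2:173152823-173153072 (plus) and Gpam chr19:55099478-55099727 (minus).
Agpat2: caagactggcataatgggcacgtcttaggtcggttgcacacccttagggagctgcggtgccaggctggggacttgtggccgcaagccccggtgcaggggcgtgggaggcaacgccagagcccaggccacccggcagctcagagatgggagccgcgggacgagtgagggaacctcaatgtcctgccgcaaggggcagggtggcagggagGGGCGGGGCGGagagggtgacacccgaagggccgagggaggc
Acsl1: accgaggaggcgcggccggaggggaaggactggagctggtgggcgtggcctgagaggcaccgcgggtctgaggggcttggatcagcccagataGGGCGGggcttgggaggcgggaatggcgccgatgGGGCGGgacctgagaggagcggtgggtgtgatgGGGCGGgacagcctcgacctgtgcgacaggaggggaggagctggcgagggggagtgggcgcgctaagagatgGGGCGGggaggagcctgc
Pck1: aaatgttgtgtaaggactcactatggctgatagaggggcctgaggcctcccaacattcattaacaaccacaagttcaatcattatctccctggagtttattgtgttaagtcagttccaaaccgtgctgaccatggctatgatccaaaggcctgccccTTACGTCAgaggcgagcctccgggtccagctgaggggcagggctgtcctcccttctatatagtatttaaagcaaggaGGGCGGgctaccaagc
Gpam: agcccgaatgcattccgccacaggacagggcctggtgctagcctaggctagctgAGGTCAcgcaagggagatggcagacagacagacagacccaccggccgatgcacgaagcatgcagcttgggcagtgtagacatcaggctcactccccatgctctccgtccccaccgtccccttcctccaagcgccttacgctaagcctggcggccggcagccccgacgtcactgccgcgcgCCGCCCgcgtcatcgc

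The motifs searched, on both strands, were AGGTCA, to which nuclear receptors bind, the PPAR and RXR element made of 2 such copies in tandem with 1 base between them (so that each such element also counts as a match of the single copy), the C/EBP motif TTGCNNAA, the cyclic AMP response element TNACGTCA, the SREBP motif TCACNCCAC, the E-box CACGTG, the GC box GGGCGG and the TATA box TATAAA. The GC box was found in 5 of the 6 promoters, all but Lpin1, and in 32.7% of 32851 promoters in the RefSeq table. It occurred 4 times before Acsl1, 3 times before Gpat3, 2 times before Agpat2, and once each before Pck1 and Gpam. The cyclic AMP response element, known from the rat Pck1 promoter as the site through which fasting signals raise the gene, was found once, beginning 93 bases before the start of Pck1, and in 2.52% of all promoters. The single copy of AGGTCA was found in 2 promoters, beginning 196 bases before the start of Gpam and 74 bases before that of Lpin1, and in 14.0% of all promoters. The tandem element was in 0 of the 6 windows and in 0.0335% of all promoters, and the C/EBP motif, SREBP motif, E-box and TATA box were in 0 of the 6, against 9.56%, 1.05%, 6.02% and 12.4% of all promoters. A match is a string of letters and not a measured binding site.

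Acsl1 (ENSMUSG00000018796, chromosome 8, 46471037 to 46536051, plus strand, GRCm38), the long-chain acyl-CoA synthetase of fat, heart and muscle, had a lowest, median and highest value of 132, 214 and 307 CPM in knockouts, against 389, 435 and 568 CPM in controls. Every knockout library lay below every control. The mean was 46.5% of that of controls, with a log2 fold change of -1.10 (SE 0.21, 95% interval -1.55 to -0.66, adjusted p = 0.0291, edgeR quasi-likelihood). The call was lost without knockout replicate 3, 4 or 6 or control replicate 1, 2 or 4, with an edgeR adjusted p of up to 0.0796. Of the acyl-CoA synthetases Acsl1, Acsl3, Acsl4, Acsl5 and Acsl6, Acsl1 made up 34.2% ± 9.66 of the counts per kilobase in knockouts and 55.1% ± 3.24 in controls (SD, n = 6 each). Acsl3, a synthetase of nascent lipid droplets, stood at 47.2 ± 8.04 CPM in knockouts and 39.6 ± 4.61 CPM in controls, with an edgeR adjusted p of 0.496. The share of Acsl3 was 18.7% ± 4.27 in knockouts and 11.5% ± 0.648 in controls, and that of Acsl4 was 21.4% ± 3.71 in knockouts and 14.3% ± 1.13 in controls. The level of Acsl4 was 67.6 ± 8.84 CPM in knockouts and 61.2 ± 3.89 CPM in controls, with an edgeR adjusted p of 0.684.

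Both genes of glycerol phosphate supply stood lower without passing the main edgeR test. Gpd1 (ENSMUSG00000023019, chromosome 15, 99717515 to 99725005, plus strand), the cytosolic glycerol 3-phosphate dehydrogenase of fat and fast muscle, had a lowest, median and highest value of 86.4, 216 and 331 CPM in knockouts, against 288, 450 and 592 CPM in controls. In 5 of 6 knockout libraries it lay below the lowest control, which was control replicate 6, one of the libraries with the lowest fibre markers. Its log2 fold change was -1.10 (SE 0.29, edgeR adjusted p = 0.125). Gpd1 overlaps Gm16537 over 6960 bases on the opposite strand, and Gm16537 averaged 0.209 CPM in knockouts and 0.45 CPM in controls. Pck1 (ENSMUSG00000027513, chromosome 2, 173153048 to 173159273, plus strand), the cytosolic phosphoenolpyruvate carboxykinase, had the lowest knockout mean of the 10 genes relative to controls, at 23.8%. Its lowest, median and highest values were 3.87, 25.0 and 39.2 CPM in knockouts, against 62.7, 90.0 and 130 CPM in controls, so the groups did not overlap.

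The knockout libraries differed widely for Pck1, with 71 counts in knockout replicate 5 and 912 in knockout replicate 1. Its log2 fold change was -2.07 (SE 0.44, 95% interval -3.02 to -1.12), and the adjusted p of 0.0515 missed the threshold (edgeR quasi-likelihood), which it passed without knockout replicate 1 or knockout replicate 5. Of 10 alternatives that did not omit single libraries, Pck1 passed in 5. Among them were the non-robust edgeR fit (adjusted p = 0.0357) and limma-trend on FPKM (adjusted p = 0.0274). Pck2, the mitochondrial carboxykinase, stood at 37.8 ± 8.79 CPM in knockouts and 42.5 ± 3.30 CPM in controls (SD, n = 6 each). Per kilobase, Pck1 made up 51.9% ± 20.3 of the carboxykinase counts in knockouts and 82.6% ± 4.00 in controls. Pcx, the mitochondrial pyruvate carboxylase that makes the oxaloacetate used by Pck1, was the gene of glycerol phosphate supply with the smallest p outside the 10. It stood at 58.6 ± 25.9 CPM in knockouts and 119.9 ± 25.3 CPM in controls, with an edgeR adjusted p of 0.123.

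At the first acylation Gpat3 fell, and Gpam and Gpat4 did not pass the test. Gpat3 (ENSMUSG00000029314, chromosome 5, 100845713 to 100899102, plus strand) had a lowest, median and highest value of 6.38, 13.5 and 21.6 CPM in knockouts, against 31.7, 40.2 and 51.3 CPM in controls. All 6 knockout libraries lay below all controls, with a log2 fold change of -1.58 (SE 0.25, 95% interval -2.11 to -1.05, adjusted p = 0.0193, edgeR quasi-likelihood). Without knockout replicate 3 or 4 or control replicate 4 the call was lost, with an edgeR adjusted p of up to 0.062. Gpat4 (ENSMUSG00000031545, chromosome 8, 23171265 to 23208346, minus strand) had 83.6, 88.4 and 91.4 CPM in knockouts as its lowest, median and highest values, against 81.7, 83.8 and 87.8 CPM in controls. Its groups overlapped, with 4 of 6 knockout libraries above the highest control. The log2 fold change of Gpat4 was 0.06, with a 95% interval of -0.04 to 0.17 (adjusted p = 0.810, edgeR quasi-likelihood). Gpam (ENSMUSG00000024978, chromosome 19, 55069734 to 55099451, minus strand) had 19.1, 25.5 and 32.1 CPM in knockouts and 23.2, 26.4 and 30.5 CPM in controls. Its log2 fold change was -0.01, with a 95% interval of -0.25 to 0.24 (adjusted p = 0.998, edgeR quasi-likelihood) and a sign that depended on the scaling. Neither interval reaches the fall of Gpat3.

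The ratio of isoenzymes within a library does not depend on how libraries are scaled, and 4 such ratios of counts per kilobase were compared. The ratios were chosen with earlier results of these data known. Those of Gpat3 and Agpat2 use the same counts as the calls of these genes, so their p-values are not separate evidence. The log2 ratio of Gpat3 to Gpat4 averaged -1.86 ± 0.66 in knockouts and -0.13 ± 0.27 in controls (SD, n = 6 each), a difference of -1.73. All 6 knockout libraries, from -2.85 to -1.07, lay below all controls, from -0.46 to 0.18 (exact permutation, both sides, p = 0.00216, the smallest that 6 against 6 can give, 0.00432 adjusted over the 4 ratios). The log2 ratio of Gpam to Gpat4 averaged -0.97 ± 0.25 in knockouts and -0.89 ± 0.17 in controls (exact permutation p = 0.509). Of the 4 acyltransferases of this step, Gpat3 made up 16.1% ± 6.35 of the counts per kilobase in knockouts and 37.0% ± 4.56 in controls, and Gpat4 made up 54.4% ± 2.70 in knockouts and 40.4% ± 2.64 in controls. Gpat2, the fourth, was near the limit of detection, with means of 0.925 CPM in knockouts and 0.549 CPM in controls and an adjusted p of 0.703 (edgeR quasi-likelihood).

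**Figure D2:**
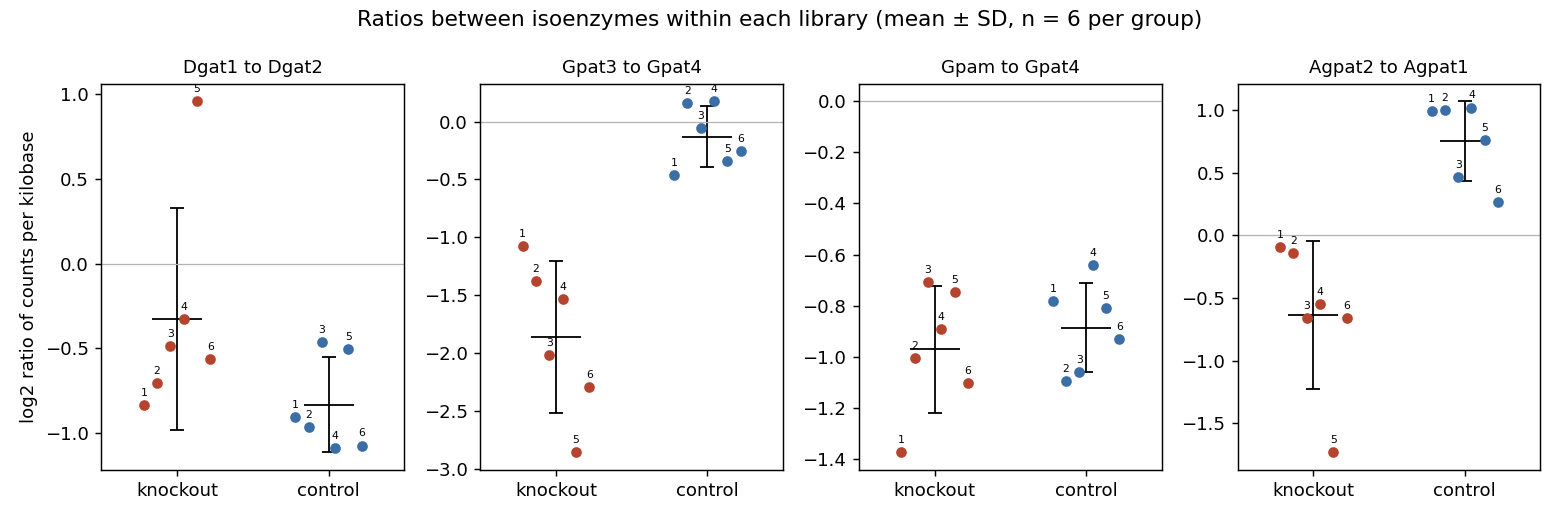
Log2 ratio of counts per kilobase between isoenzymes in each library, with replicate numbers and the mean ± SD (n = 6 per group). Knockout and control libraries are fully apart for Gpat3 to Gpat4 and for Agpat2 to Agpat1, and overlap for Gpam to Gpat4 and for Dgat1 to Dgat2, where knockout replicate 5 stands at 0.96.

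At the second acylation Agpat2 (ENSMUSG00000026922, chromosome 2, 26593057 to 26604417, minus strand), the lysophosphatidate acyltransferase of fat tissue, had a lowest, median and highest value of 13.2, 29.2 and 43.1 CPM in knockouts, against 48.0, 75.0 and 89.6 CPM in controls. The groups did not overlap, though knockout replicate 1 lay close to control replicate 6. The log2 fold change was -1.27 (SE 0.25, 95% interval -1.81 to -0.73, adjusted p = 0.0332, edgeR quasi-likelihood). It passed only without knockout replicate 1, 2 or 5 or control replicate 6 among the fits with 1 library omitted, and the edgeR adjusted p reached 0.103 in the others. Agpat2 overlaps Egfl7 over 64 bases on the opposite strand, and Egfl7 stood at 40.8 CPM in knockouts and 43.7 CPM in controls. It also overlaps Gm20532 over 11361 bases on the opposite strand, and Gm20532 stood at 0 CPM in both groups. Agpat1, the widely expressed paralog, stood at 61.9 ± 4.26 CPM in knockouts and 59.9 ± 3.78 CPM in controls, with an edgeR adjusted p of 0.928. The log2 ratio of Agpat2 to Agpat1 averaged -0.64 ± 0.59 in knockouts and 0.75 ± 0.32 in controls, with all knockout libraries below all controls (exact permutation p = 0.00216, 0.00432 adjusted over the 4 ratios). Among the 5 Agpat genes, Agpat2 made up 18.5% ± 6.10 of the counts per kilobase in knockouts and 36.1% ± 4.69 in controls, and Agpat3 made up 38.3% ± 5.40 in knockouts and 29.5% ± 1.15 in controls. The level of Agpat3 was 225 ± 34.2 CPM in knockouts and 215 ± 16.1 CPM in controls, with an edgeR adjusted p of 0.933.

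**Figure D3:**
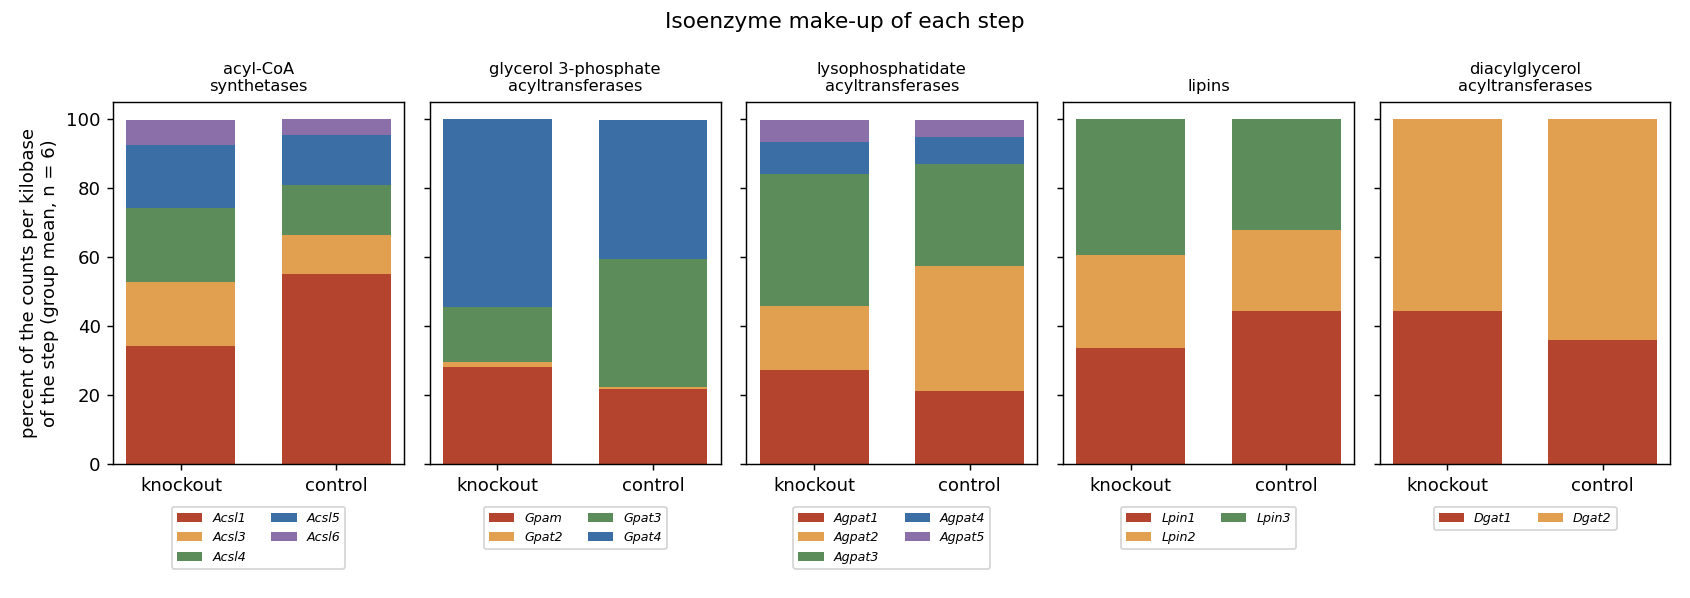
Mean percent of the counts per kilobase of each step (vertical axis) taken by each isoenzyme, in knockouts and controls (n = 6 each). Gene lengths cover all annotated exons, so the share of a gene read mainly from a short transcript can be too low. Gpat3 takes 16.1% of its step in knockouts and 37.0% in controls, and Agpat2 takes 18.5% in knockouts and 36.1% in controls.

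Lpin1 (ENSMUSG00000020593, chromosome 12, 16535669 to 16610966, minus strand), the main lipin of muscle and fat, had a lowest, median and highest value of 21.5, 37.9 and 63.4 CPM in knockouts, against 41.1, 51.8 and 63.98 CPM in controls. The groups overlapped, with 3 knockout libraries below the lowest control and knockout replicate 2 near the highest. The log2 fold change was -0.43 (SE 0.23, 95% interval -0.92 to 0.06, adjusted p = 0.613, edgeR quasi-likelihood). Lpin1 made up 33.8% ± 12 of the lipin counts per kilobase in knockouts and 44.5% ± 5.53 in controls. The share of Lpin3 was 39.2% ± 8.43 in knockouts, above that of Lpin1, and 32.1% ± 3.87 in controls. That of Lpin2 was 27.0% ± 6.42 in knockouts and 23.5% ± 2.86 in controls. Lpin2 stood at 38.6 ± 6.20 CPM in knockouts and 34.9 ± 2.94 CPM in controls, and Lpin3 at 17.1 ± 4.07 CPM in knockouts and 14.4 ± 1.57 CPM in controls, neither past the threshold. Lpin2 and Lpin3 were named after their values were seen.

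Both enzymes of the last acylation stood lower. Dgat1 (ENSMUSG00000022555, chromosome 15, 76502015 to 76511953, minus strand), a membrane-bound acyltransferase of the endoplasmic reticulum, had a lowest, median and highest value of 28.1, 39.3 and 50.9 CPM in knockouts, against 61.9, 71.8 and 82.1 CPM in controls. The groups did not overlap, and the log2 fold change was -0.85 (SE 0.13, 95% interval -1.13 to -0.56, adjusted p = 0.0189, edgeR quasi-likelihood). As for Gpat3, the call was lost without knockout replicate 3 or 4 or control replicate 4, with an edgeR adjusted p of up to 0.059. Dgat2 (ENSMUSG00000030747, chromosome 7, 99153658 to 99182719, minus strand), an acyltransferase of another protein family that also acts at lipid droplets, had 17.2, 52.7 and 88.0 CPM in knockouts, against 100.4, 126.5 and 169 CPM in controls. Its groups did not overlap either, but the knockout libraries were more scattered than those of Dgat1. The log2 fold change of -1.23 (SE 0.31, 95% interval -1.90 to -0.55) had an adjusted p of 0.111 (edgeR quasi-likelihood), so a larger fold change than that of Dgat1 did not pass the threshold that Dgat1 passed.

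The log2 ratio of Dgat1 to Dgat2 averaged -0.33 ± 0.65 in knockouts and -0.83 ± 0.28 in controls, a difference of 0.51 that did not pass (exact permutation p = 0.0649, 0.0865 adjusted over the 4 ratios). Knockout replicate 5, the library with the lowest Dgat2, had a ratio of 0.96, while the other knockout ratios were at most -0.33. Without knockout replicate 5 the difference was 0.25 (exact permutation p = 0.130). Per kilobase, Dgat2 made up 55.6% ± 11 of both enzymes in knockouts and 63.9% ± 4.52 in controls. Mogat1 and Mogat2, which make diacylglycerol from monoacylglycerol, had too few counts to be tested. Their means were 0.118 and 0.308 CPM in knockouts and 0.208 and 0.229 CPM in controls.

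Compared per length, in the deposited FPKM (fragment counts scaled by gene length and by library size), the order of the 10 genes differed between the groups. In knockouts Gpd1 averaged 70.4 FPKM, Acsl1 20.3, Dgat2 18.1, Agpat2 14.1, Gpat4 13.1, Dgat1 12.99, Gpam 6.78, Pck1 6.44, Lpin1 4.02 and Gpat3 3.90 FPKM. In controls Gpd1 averaged 149.7 FPKM, Acsl1 43.4, Dgat2 42.0, Agpat2 33.8, Pck1 26.9, Dgat1 23.2, Gpat4 12.5, Gpat3 11.6, Gpam 6.78 and Lpin1 5.38 FPKM. In controls the ranges of the 6 libraries did not overlap between Gpd1 and Acsl1, between Dgat1 and Gpat4, or between Gpat3 and Gpam, and they overlapped between all other neighbours in the order. In knockouts they did not overlap between Dgat1 and Gpam, and those of Gpd1, from 29.12 to 111.5 FPKM, and Acsl1, from 12.56 to 29.1 FPKM, were barely apart, while all other neighbours overlapped. Gene lengths in the table cover all annotated exons, so the FPKM of a gene read mainly from a short transcript is too low. The same lengths were used for counts per kilobase, so the isoenzyme shares and the levels of the ratios carry this limit too.

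**Figure D4:**
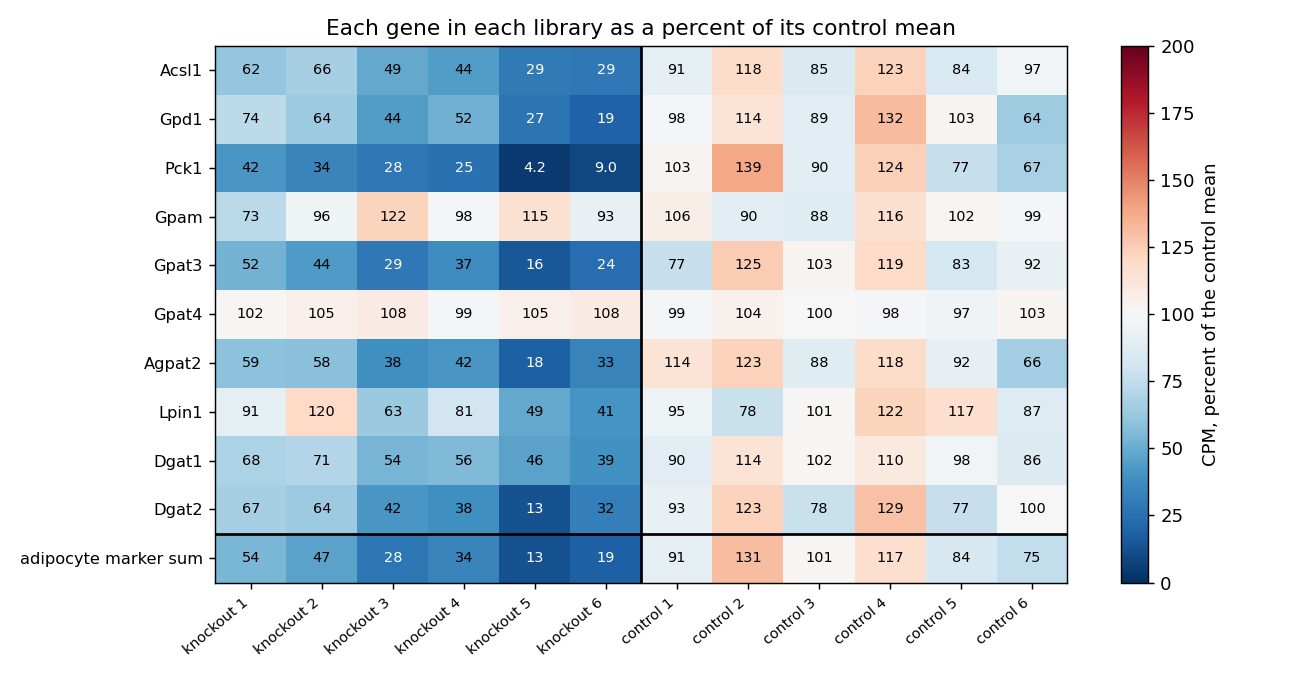
CPM of each gene in each of the 12 libraries as a percent of its control mean, with the summed CPM of 10 adipocyte markers in the bottom row. Gpat4 stays between 96.8% and 108% in every library, whereas Pck1 stands at 4.15% in knockout replicate 5 and 42.1% in knockout replicate 1.

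The knockout libraries were not alike, and they took a similar order for most of the genes. The median over the 10 genes, as a percent of the control mean, was 67.6, 65.2, 46.5, 48.0, 28.1 and 32.5 in knockout replicates 1 to 6. Knockout replicate 1 was the highest knockout library for Gpd1, Pck1, Gpat3, Agpat2 and Dgat2, and knockout replicate 2 for Acsl1, Lpin1 and Dgat1. Knockout replicate 5 was the lowest for Pck1, Gpat3, Agpat2 and Dgat2, and knockout replicate 6 for Acsl1, Gpd1, Lpin1 and Dgat1. Gpam and Gpat4 did not follow this order: Gpam was lowest in knockout replicate 1, Gpat4 was lowest in knockout replicate 4, and both were highest in knockout replicate 3.

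Adipocyte markers outside the 10 genes (Adipoq, Plin1, Cidec, Cfd, Fabp4, Plin4, Lep, Retn, Lipe and Adrb3) moved with these values. Their summed level was 54.0%, 46.8%, 28%, 33.6%, 12.6% and 18.6% of the control mean in knockout replicates 1 to 6, and ranged from 427 to 1820 CPM in knockouts and from 2550 to 4440 CPM in controls. Of these 10 markers Fabp4 and Adrb3 fell, all 10 log2 fold changes were negative (median -1.69), and none was at 0 counts throughout. FAP markers (Pdgfra, Dcn, Ly6a, Col3a1 and Cd34) summed to between 3360 and 5760 CPM in knockouts and between 5150 and 6830 CPM in controls. The mean FAP sum was 74.4% of that of controls, and all 5 log2 fold changes were negative (median -0.27), with 0 of 5 past the threshold. Macrophage markers (Adgre1, Cd68, Csf1r, Lyz2 and Mrc1) summed to between 4250 and 6930 CPM in knockouts and between 5600 and 6940 CPM in controls, and endothelial markers to between 148 and 265 CPM in knockouts and between 190 and 273 CPM in controls, with 0 past the threshold in either list. Markers of regenerating fibres (Myh3, Myh8 and Myog) summed to between 2880 and 5150 CPM in knockouts and between 2340 and 3700 CPM in controls. Of the brown fat markers Ucp1 and Cidea the sum was at most 2.31 CPM in knockouts and 2.88 CPM in controls, and of the skin markers Krt5 and Krt14 at most 0.0991 CPM in knockouts and 0.0827 CPM in controls. The part of these cell types in the fall of the enzymes was not tested. The share of counts from mitochondrially encoded protein genes lay between 2.66% and 8.89% in knockouts and between 3.06% and 10.8% in controls. With this share as a covariate 4 of the 10 genes passed, against 153 of all tested genes.

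Of 56 other listed genes of triglyceride and phospholipid synthesis, 52 were tested and 0 passed the edgeR threshold, against 0.799% of all tested genes. At so low a share, 0 of 52 does not set the list apart from other genes. At an unadjusted p under 0.05 there were 9, of which 6 were lower and 3 higher, against 5.68% of all tested genes as lower and 3.79% as higher. The median of their log2 fold changes was -0.03, the range -1.03 to 0.73, and 28 were negative and 24 positive. DESeq2 called 2 of the 52 as lower, Pcx and Bscl2, against 399 of all 16393 tested genes. With limma-voom 4 were called lower, Pcx, Bscl2, Chpt1 and Plpp3, against 389 of all tested genes. The replicate block called 2 as lower, Chpt1 and Bscl2, against 236 of all tested genes. No gene of the list had groups that did not overlap, against 1.27% of all tested genes as lower and 0.159% as higher. This too does not set the list apart.

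The gene of each remaining step with the smallest p illustrates the range. Bscl2, which encodes seipin, the protein that shapes new lipid droplets, stood at 64.5 ± 12.5 CPM in knockouts and 90.1 ± 14.0 CPM in controls (adjusted p = 0.119, edgeR quasi-likelihood). Plpp3, a phosphatidate phosphatase of the cell surface, stood at 68.8 ± 10.8 CPM in knockouts and 90.0 ± 13.7 CPM in controls (adjusted p = 0.182, edgeR quasi-likelihood). Chpt1, which turns diacylglycerol into phosphatidylcholine, stood at 68.2 ± 12.9 CPM in knockouts and 94.97 ± 16.2 CPM in controls (adjusted p = 0.160, edgeR quasi-likelihood). Cds1, which diverts phosphatidate towards phosphatidylinositol and cardiolipin, stood at 8.43 ± 1.06 CPM in knockouts and 10.4 ± 1.42 CPM in controls. Ctdnep1, the phosphatase that activates lipins, had 108 ± 13.6 CPM in knockouts and 111 ± 13.9 CPM in controls, and Tmem68, an acyltransferase-like protein that can make triglyceride, had 20.9 ± 2.60 CPM in knockouts and 20.2 ± 1.32 CPM in controls. Dgkz, a kinase that returns diacylglycerol to phosphatidate, had 213 ± 42.9 CPM in knockouts and 187 ± 31.9 CPM in controls.

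**Figure D5:**
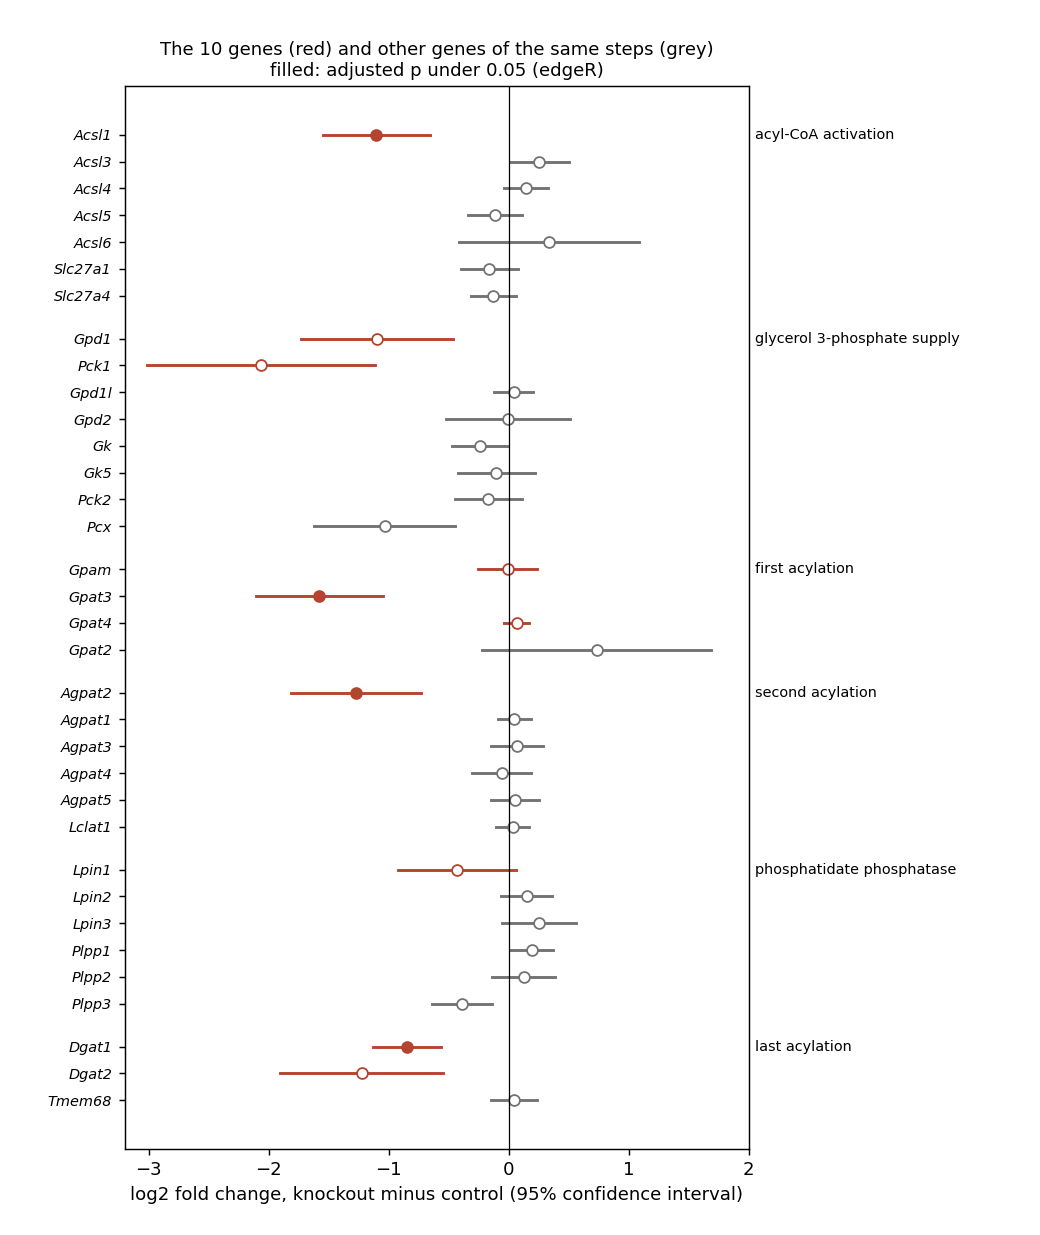
Log2 fold change, knockout minus control, with its 95% confidence interval, for the 10 genes (red) and the other tested genes of the same steps (grey), grouped by step. Filled points passed an edgeR adjusted p of 0.05, namely Acsl1, Gpat3, Agpat2 and Dgat1. The grey genes run from Pcx at -1.03 to Gpat2 at 0.73, with 0 past the threshold, against 0.799% of all tested genes.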

How the data were processed

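RNA of 12 whole tibialis anterior samples was sequenced after poly-T selection, per the labels' protocols, which describe directional and non-directional preparation alike. Raw read counts per gene were deposited by the authors. The submitters' processing notes name fastp, HISAT2 2.0.5, featureCounts and GRCm38 (mm10). The strand setting was not among them. FPKM per library were also deposited by the authors, with 2 columns of group means that were not used.

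Counts were filtered with filterByExpr (minimum count 10, minimum total 15), scaled by TMM and compared with robust quasi-likelihood F tests in edgeR 4.0.16 (R 4.3.3), knockout minus control, with Benjamini-Hochberg adjustment over 16393 genes. Standard errors were derived from F and the fold change. The fit was tested on simulated data. Ratios of isoenzymes used counts per kilobase with 0.5 added to each count and an exact permutation test of both sides. The 10 genes, the lists and the ratios were chosen with earlier results of these data known. All 10 genes are named. Of 56 other pathway genes those past the threshold and the one with the smallest p in each step are named, and Acsl4, Acsl5, Acsl6, Agpat3, Pck2, Mogat1 and Mogat2, like Lpin2 and Lpin3, were named outside this rule after their values were seen. Coordinates are those of the count table and match GENCODE M21 for all genes of the set but Gpam. At most 3.99% of the 50-base words of the longest transcript of any of the 10 (Gpat3) occurred in another gene. All 12 libraries were used, since chi-square per degree of freedom was 13.1 to 161 over the 30 within-group pairs, where 1 would be sampling noise. Alternatives covered scaling, DESeq2 1.42.0, limma-voom (limma 3.58.1), a non-robust edgeR fit and a block for replicate number. They also covered the count filter, FPKM values with 1 added before log2 (limma-trend), the mitochondrial share and each library left out.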

Additional observations from a re-analysis of the deposited data

Results flagged for a closer look

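Of 28 groups of 6 values examined for a library that stands apart (10 genes and 4 ratios in each group of libraries), 2 were flagged, and chance alone flags about 1 in 20. Both concern knockout replicate 5. Its log2 ratio of Dgat1 to Dgat2 was 0.96, while the next highest knockout library stood at -0.33. Its log2 ratio of Agpat2 to Agpat1 was -1.73, while the next lowest knockout library stood at -0.66. In this library the summed adipocyte markers were also lowest, at 12.6% of the control mean.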

How the results depend on the processing

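Of 220 comparisons of a gene of the set with an alternative, 170 kept the direction and the side of the threshold, 26 lost a call, 12 gained one, and 12 changed sign. All 12 sign changes were those of Gpam, whose log2 fold change was 0.0031 with RLE scaling, 0.0091 with upper-quartile scaling, 0.0035 with DESeq2, 0.021 with limma-voom, 0.0017 without a count filter, and between -0.076 and 0.068 with single libraries left out. Of the 10 genes, 7 passed with DESeq2 and 7 with limma-voom, both adding Gpd1, Pck1 and Dgat2, 2 without a count filter (Gpat3 and Dgat1), 0 without the 3 libraries of lowest fibre markers, and 0 to 5 with single libraries left out. With the non-robust edgeR fit 5 passed and with FPKM values 5 passed, both adding Pck1. Of the other pathway genes, 2 passed with DESeq2, 4 with limma-voom and 2 with the replicate block, and 0 to 1 with single libraries left out. Over all genes 399 passed with DESeq2, 389 with limma-voom, 236 with the replicate block and 9 without the 3 libraries of lowest fibre markers, against 131. The number was 144 with the non-robust fit, 172 with FPKM values, 114 without a count filter and 153 with the mitochondrial share. With single libraries left out it was 6 to 214. Whether equal replicate numbers pair the samples is not known. The correlations of their deviations ran from -0.133 to 0.464, and none were computed for unequal numbers to compare them with. With the replicate block 6 of the 10 genes passed, Gpd1 and Pck1 being added. The Gpat3 to Gpat4 difference ran from -1.89 to -1.53 and that of Agpat2 to Agpat1 from -1.50 to -1.17 with single libraries left out, with exact permutation p up to 0.00433. For Dgat1 to Dgat2 it ran from 0.25 to 0.61, with exact permutation p from 0.0325 to 0.154, and for Gpam to Gpat4 from -0.14 to -0.0049. The replicate block gave the ratios exact sign-flip p-values of 0.0312, 0.0312, 0.0625 and 0.562 in the order Gpat3 to Gpat4, Agpat2 to Agpat1, Dgat1 to Dgat2 and Gpam to Gpat4. The causes were not tested.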
